A study of Danio rerio with 9 samples.

Results

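The transcripts described here encode the glutathione peroxidases gpx1a, gpx1b, gpx3, gpx4a and GPX4, the glutamate-cysteine ligase subunits GCLC and GCLM, the glutathione reductase GSR, and the glutathione transferases mgst3b, MGST3 and gstk1, which are 11 of the 32520 genes in the TPM table. They were chosen by symbol, with case ignored and the paralog letter a or b optional, and capitals mark entries to which the table of Ensembl names gives the human symbol. GPX4 (ENSDARG00000076836) is the only entry beside gpx4a that answers to gpx4b, and MGST3 (ENSDARG00000102744) the only one beside mgst3b that carries the other mgst3 name. The names were chosen with earlier results of the comparisons with Ctrl known. The differences of these 11 genes between groups are therefore given as a description, with their standard errors and without p-values, and nothing is supported with them. Whole wild-type AB larvae were collected at 5 days of age in 9 pools. The Ctrl group was not microinjected, the SHMO group received sialylated oligosaccharides from human milk and the SBMO group those from bovine milk, with 3 pools in each group. The injected embryos had received 4.6 nL of a 100 mmol/L solution in Danieau saline into the yolk at 4.7 hpf. Saline alone was given to none of the pools analysed here, so the effects of the oligosaccharide and of the injection cannot be told apart in a comparison with Ctrl. The SHMO and SBMO pools share the injection and the saline, and differ from each other in the source of the sugar fraction.

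Glutathione is a tripeptide that cells use to reduce peroxides and to tag reactive compounds for export. Glutamate-cysteine ligase, a dimer of a catalytic (GCLC) and a modifier (GCLM) subunit, carries out the rate-limiting step of its synthesis. Glutathione peroxidases spend glutathione to reduce hydrogen peroxide and lipid hydroperoxides, and most of the forms described here carry selenocysteine in the active site in vertebrates. Glutathione reductase returns the oxidized form to use with NADPH, and glutathione transferases couple glutathione to electrophiles. In vertebrates these enzymes are abundant in liver, gut, kidney and blood cells, and many of their genes respond to the transcription factor Nrf2.

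The deposited values are TPM, in which reads are divided by gene length and by the total of the library, so levels of different genes can be compared, while the values themselves carry no read depth and library depths were not used here. All 11 genes passed the filter of a mean of at least 1 TPM, which kept 19051 genes. Fold changes are differences of log2(scaled TPM + 0.1), written log2(FC), from a single limma model of the 3 groups. Library pairs correlated at 0.933 to 0.976 within groups and 0.860 to 0.962 between groups (Pearson, log2 values across genes, which are not independent), and 0 pairs were identical. SHMO replicate 1 held the highest SHMO value of 10 of the 11 genes, and the fold changes it moved most are also given without it. Ctrl replicate 3 held the highest Ctrl value of 10 of the 11 genes, and values without it are given with the thresholds below.

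In Ctrl pools the level of these transcripts ran from 472 ± 96.9 TPM for gpx4a down to 2.79 ± 0.867 TPM for gpx3 (SD, n = 3). GPX4 came next at 214 ± 27.6 TPM, and its 3 pools lay below all 3 gpx4a pools. Then followed mgst3b (102 ± 19.6), MGST3 (98.0 ± 18.8) and gpx1a (89.8 ± 12.3), whose Ctrl ranges overlapped, and gstk1 (67.8 ± 10.0), which lay below them. The lowest levels belonged to gpx1b (19.8 ± 1.16), GSR (15.3 ± 4.13), GCLC (13.7 ± 1.13), GCLM (10.3 ± 1.72) and gpx3. Ranges overlapped between gpx1b and GSR and between GSR and GCLC, while GCLM lay below GCLC in every Ctrl pool and gpx3 below GCLM.

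**Figure D1:**
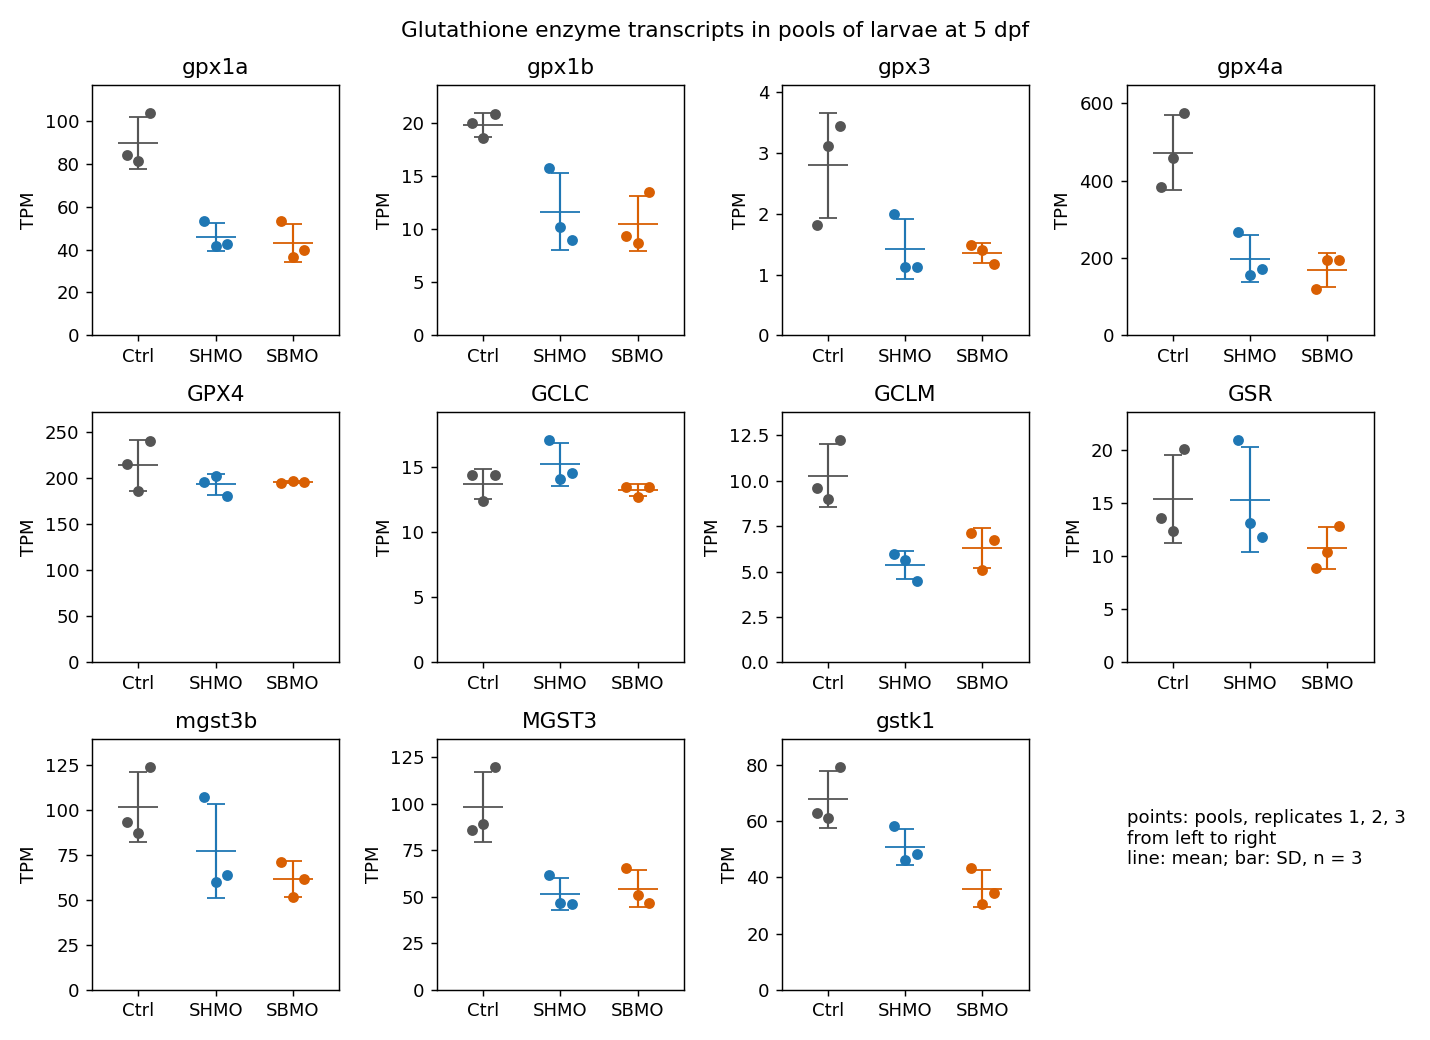
TPM of the 11 glutathione enzyme genes in the 9 pools, one panel per gene with its own axis from 0; points are pools, horizontal lines group means and bars the SD (n = 3). For gpx1a, gpx1b, gpx4a, GCLM, MGST3 and gstk1 all 3 Ctrl points lie above all 6 injected pools, while GPX4 and GCLC overlap between injected and Ctrl pools.

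The cytosolic glutathione peroxidases of the Gpx1 type, which reduce hydrogen peroxide, were lower in all 6 injected pools than in any Ctrl pool. For gpx1a (ENSDARG00000018146) the Ctrl pools were at 84.3, 81.3 and 104 TPM (replicates 1, 2 and 3), the SHMO pools at 53.3, 41.8 and 42.7 and the SBMO pools at 53.2, 36.4 and 40.0. The injected groups overlapped each other and lay apart from Ctrl. The log2(FC) of gpx1a was -1.03 (standard error 0.172) for SHMO against Ctrl and -1.05 (0.172) for SBMO against Ctrl, that is 0.511 and 0.481 times the Ctrl mean in TPM. Its paralog gpx1b (ENSDARG00000006207) was at 20.0, 18.6 and 20.9 TPM in Ctrl, 15.8, 10.2 and 8.99 with SHMOs and 9.38, 8.73 and 13.5 with SBMOs. The highest injected pools of gpx1b, SHMO replicate 1 and SBMO replicate 3, still lay below the lowest Ctrl pool. For gpx1b the log2(FC) was -0.87 (standard error 0.220) with SHMOs, or -1.10 without SHMO replicate 1, and -0.91 (0.220) with SBMOs. The ratio of gpx1a to gpx1b TPM was 4.21 to 4.98 in Ctrl, 3.38 to 4.75 with SHMOs and 2.96 to 5.67 with SBMOs, so the ranges of the groups overlapped.

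The Gpx4 type reduces hydroperoxides of membrane phospholipids and protects cells from ferroptosis, a form of death driven by lipid peroxidation. The entries gpx4a and GPX4 differed in their pattern. For gpx4a (ENSDARG00000068478) the Ctrl pools were at 383, 458 and 575 TPM, the SHMO pools at 268, 155 and 171 and the SBMO pools at 119, 194 and 196. Every injected pool lay below the lowest Ctrl pool, and the spread within each group was wide. The log2(FC) of gpx4a was -1.34 (standard error 0.279) with SHMOs and -1.48 (0.279) with SBMOs, the lowest of the 11 genes in both comparisons, and -1.58 with SHMOs when SHMO replicate 1 was left out. For GPX4 the Ctrl pools were at 215, 185 and 241 TPM, the SHMO pools at 196, 202 and 181 and the SBMO pools at 194, 196 and 195. All 3 groups overlapped within a narrow range, with a log2(FC) of -0.21 (standard error 0.123) and -0.10 (0.123). As a share of the summed TPM of both entries, gpx4a made up 64.0 to 71.2% in Ctrl, 43.4 to 57.8% with SHMOs and 37.9 to 50.1% with SBMOs. The gpx4a level was thus above that of GPX4 in every Ctrl pool, above it in SHMO replicate 1 and SBMO replicate 3, and below it in the other 4 injected pools. The counting tool divides reads that fit paralogs by a model, and how many reads these pairs shared was not analysed here, so the split between gpx4a and GPX4, between gpx1a and gpx1b and between mgst3b and MGST3 carries that uncertainty.

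**Figure D2:**
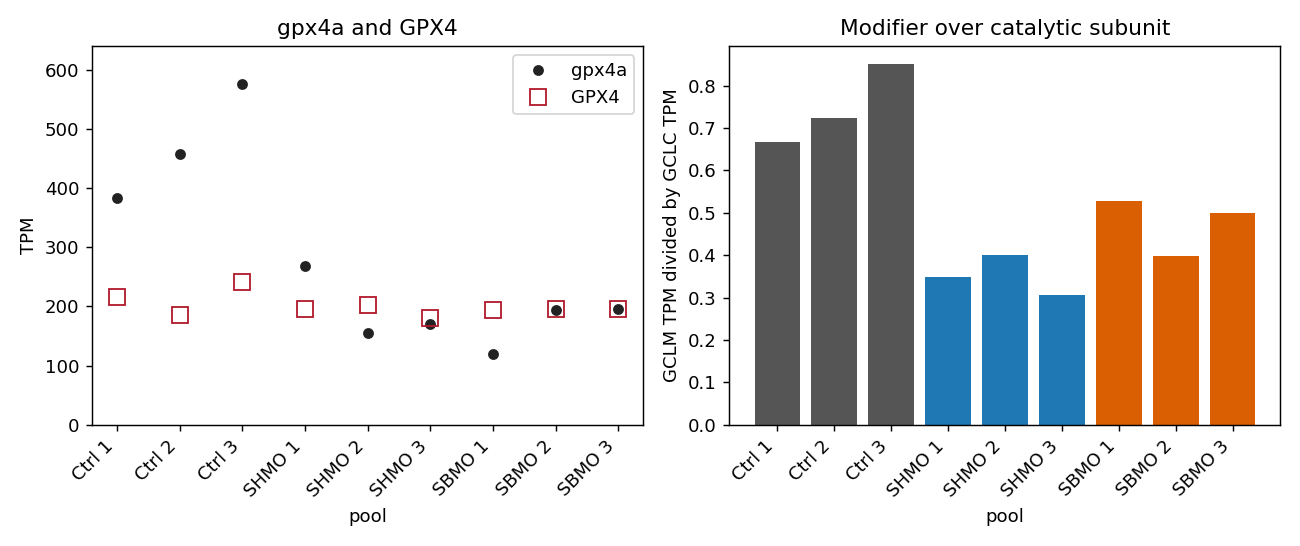
Left, TPM of gpx4a (filled circles) and GPX4 (open squares) in each pool; right, the TPM of GCLM divided by that of GCLC, with bars from 0 in grey for Ctrl, blue for SHMO and orange for SBMO. The gpx4a points drop from 383 to 575 in Ctrl to between 119 and 268 in injected pools while GPX4 stays between 181 and 241, and the GCLM to GCLC ratio is above 0.66 in every Ctrl pool and below 0.53 in every injected pool.

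The secreted peroxidase gpx3 (ENSDARG00000043342), which in mammals is made mainly by the kidney and released into plasma, was the least abundant of the 11 transcripts. Its Ctrl pools were at 1.81, 3.12 and 3.45 TPM, the SHMO pools at 1.99, 1.13 and 1.13 and the SBMO pools at 1.48, 1.41 and 1.17. The SBMO pools lay below Ctrl, while SHMO replicate 1 lay above Ctrl replicate 1. The log2(FC) of gpx3 was -0.99 with SHMOs and -0.93 with SBMOs, each with a standard error of 0.326, the largest among the 11 genes. In both comparisons gpx3 was past the thresholds without SHMO replicate 1 (-1.24 with SHMOs, -0.93 with SBMOs) or without Ctrl replicate 1 (-1.32 and -1.27). At levels this near the filter the added 0.1 shrinks the log2(FC) slightly.

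Between the subunits of glutamate-cysteine ligase, the modifier was lower in injected larvae while the catalytic subunit overlapped Ctrl. GCLM (ENSDARG00000018953) was at 9.61, 9.0 and 12.2 TPM in Ctrl, 5.96, 5.65 and 4.46 with SHMOs and 7.14, 5.07 and 6.74 with SBMOs. The ranges of both injected groups lay below that of Ctrl and overlapped each other. The log2(FC) of GCLM was -0.99 (standard error 0.179) with SHMOs and -0.68 (0.179) with SBMOs. For GCLC (ENSDARG00000013095) the Ctrl pools were at 14.4, 12.4 and 14.4 TPM, the SHMO pools at 17.1, 14.1 and 14.5 and the SBMO pools at 13.5, 12.7 and 13.5. In log2(FC), GCLC was at 0.08 with SHMOs and -0.03 with SBMOs, both smaller than the standard error of 0.130, and its groups overlapped Ctrl. The GCLM to GCLC ratio of TPM accordingly ran from 0.668 to 0.851 in Ctrl, from 0.307 to 0.402 with SHMOs and from 0.398 to 0.528 with SBMOs, the Ctrl range lying apart from both others.

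Glutathione reductase, GSR (ENSDARG00000019236), showed no separation of injected pools from Ctrl. Its Ctrl pools were at 13.5, 12.4 and 20.0 TPM, the SHMO pools at 20.9, 13.1 and 11.8 and the SBMO pools at 8.92, 10.4 and 12.8. A single pool was high in each of the first 2 groups, Ctrl replicate 3 and SHMO replicate 1. GSR had a log2(FC) of -0.09 (standard error 0.257) with SHMOs and -0.48 (0.257) with SBMOs, and the former ran from -0.33 without SHMO replicate 1 to 0.13 without Ctrl replicate 3.

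The mgst3 genes encode small membrane proteins that conjugate glutathione and, in human, also reduce lipid hydroperoxides. MGST3 was at 85.5, 88.8 and 120 TPM in Ctrl, 61.6, 46.7 and 46.2 with SHMOs and 65.4, 50.9 and 46.6 with SBMOs. Both injected groups lay below Ctrl, with a log2(FC) of -0.99 and -0.83 (standard error 0.194 in each). For mgst3b (ENSDARG00000033364) the Ctrl pools were at 93.5, 87.4 and 124 TPM, the SHMO pools at 107, 60.0 and 63.8 and the SBMO pools at 71.3, 51.8 and 61.7. Here SHMO replicate 1 lay among the Ctrl pools. The log2(FC) of mgst3b was -0.50 with SHMOs and -0.70 with SBMOs (standard error 0.228), and -0.76 with SHMOs once SHMO replicate 1 was left out. At the other end of the fits that left out 1 pool, it was -0.34 with SHMOs. The kappa-class transferase gstk1 (ENSDARG00000056510), which in mammals is found in mitochondria and peroxisomes, was at 62.9, 61.1 and 79.3 TPM in Ctrl, 58.2, 46.1 and 48.2 with SHMOs and 43.3, 30.4 and 34.4 with SBMOs. The 3 groups of gstk1 lay in a row without overlap, Ctrl highest and SBMO lowest. Its log2(FC) was -0.48 with SHMOs and -0.90 with SBMOs (standard error 0.168).

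The study's thresholds were an adjusted p of at most 0.05, here over all genes tested, and a log2(FC) beyond 0.58 in either direction. Of the 11 genes, 5 were past both in the lower direction with SHMOs, namely gpx1a, gpx1b, gpx4a, GCLM and MGST3, and 0 in the higher direction. Over all 19051 genes 5.32% were past them in the lower direction and 8.9% in either. With SBMOs the same 5 genes and gstk1 were past both, 6 of the 11, and 11.5% of all genes were, or 19.8% in either direction. The median log2(FC) of the 11 genes was -0.87 with SHMOs and -0.83 with SBMOs, beside 0.04 and 0.05 over all genes tested. The scaling of TPM between libraries holds the medians over all genes near 0. All 3 injected pools lay below all 3 Ctrl pools for 6 of the 11 genes with SHMOs, where 13.4% of all genes did so, and for 8 of 11 with SBMOs, where 20.1% did. Since these contrasts were in view when the genes were picked, nothing is read from those counts, and the comparisons share their 3 Ctrl pools. When TPM values were left unscaled, the share of all genes past the thresholds in the lower direction with SHMOs was 4.17%, and the share of higher genes among all calls went from 40.2% to 52.5%.

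The number of the genes past the thresholds changed with the pool left out. Such a fit also holds 1 pool fewer. The lower power this brings cannot be told apart here from the influence of the pool itself. With SHMOs the number was 5, 3 and 3 without Ctrl replicates 1, 2 and 3, 7, 2 and 1 when the SHMO pools were dropped in that order, and 5, 4 and 5 when the SBMO pools were. The share of all genes lower with SHMOs also moved, to 2.24%, 2.29% and 2.2% without those Ctrl pools. It was 8.15%, 1.54% and 1.49% without the SHMO pools, and 6.45%, 4.66% and 5.07% without the SBMO pools. With SBMOs the number of the 11 genes was 7, 5 and 3 without the Ctrl replicates in the same order, 5, 3 and 6 without the SBMO replicates, and 8, 6 and 6 without the SHMO replicates. The share of all genes lower with SBMOs was 7.48%, 7.72% and 4.52% without the Ctrl replicates. It was 9.1%, 3.98% and 11.2% without the SBMO replicates, and 12.7%, 10.5% and 9.84% without the SHMO replicates. For gpx1a the call stood in both comparisons under each of the 19 alternatives planned, with a log2(FC) from -1.14 to -0.92 with SHMOs and from -1.18 to -0.93 with SBMOs. With SBMOs gpx4a and gstk1 also kept theirs in all 19. The least stable was gpx1b with SHMOs, called in 10 of the 19 and in 3 of the 9 fits that left out 1 pool, and lost with unscaled TPM and with eBayes without trend. With SBMOs gpx1b was called in 16 of the 19, GCLM in 15 and MGST3 in 17. Without Ctrl replicate 3 the log2(FC) with SBMOs was -0.54 for GCLM, under the threshold of size, -0.67 for MGST3 and -0.87 for gpx1b. In the same fit gpx1b was at -0.83 with SHMOs. GCLM with SBMOs was also under the threshold of size without SBMO replicate 2 (-0.57). The gpx4a call with SHMOs was lost without Ctrl replicate 2 (log2(FC) -1.31) or 3 (-1.19) or SHMO replicate 2 (-1.18) or 3 (-1.27), although its value moved little. The direction of none of the called genes turned under these alternatives.

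**Figure D3:**
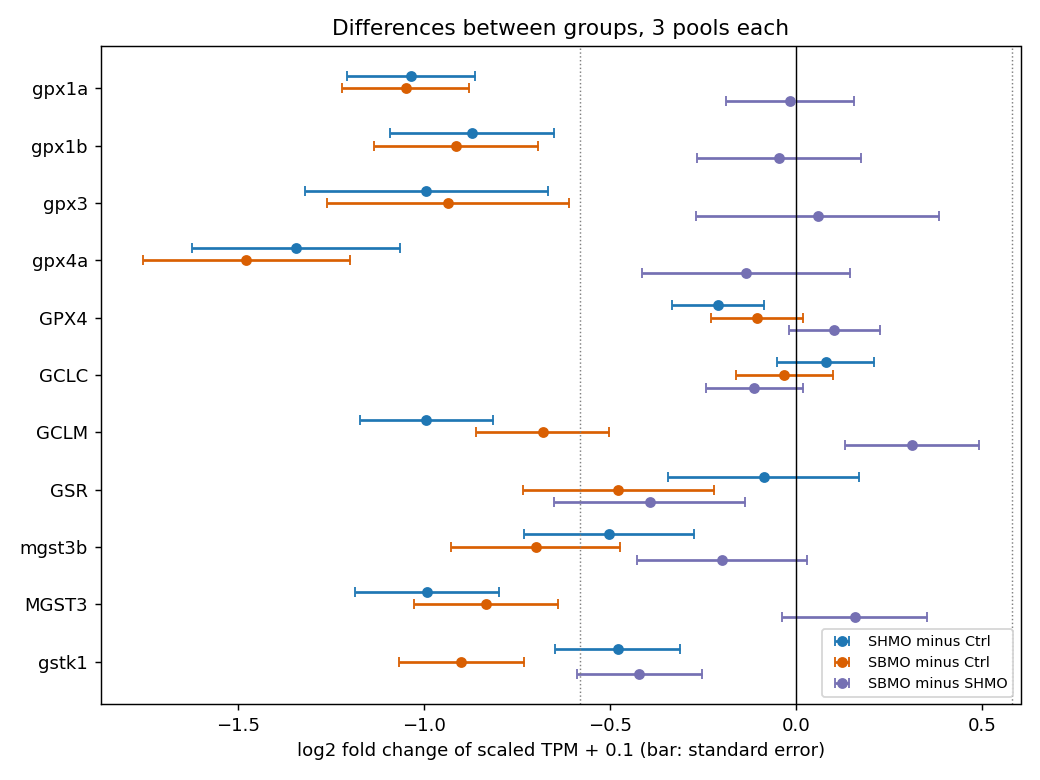
log2(FC) of the 11 genes with standard errors for SHMO minus Ctrl (blue), SBMO minus Ctrl (orange) and SBMO minus SHMO (purple); dotted lines stand at -0.58 and 0.58. The blue and orange points of gpx1a, gpx1b, gpx3, gpx4a, GCLM and MGST3 lie between -1.48 and -0.68, those of GPX4 and GCLC between -0.21 and 0.08, and the purple points between -0.42 and 0.31.

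Between SBMO and SHMO larvae 0 of the 11 genes were past the thresholds in this limma fit, where 4.57% of all genes were in either direction. An adjusted p above the threshold does not show that the treatments act alike, and the width of the intervals shows what these pools could resolve. The 95% interval of the log2(FC) was -0.40 to 0.37 for gpx1a, -0.75 to 0.49 for gpx4a and -0.53 to 0.45 for gpx1b. GCLM had the highest difference, at 0.31 with an interval of -0.09 to 0.71. The lowest was that of gstk1, at -0.42 with an interval of -0.79 to -0.05, and every SBMO pool of gstk1 lay below every SHMO pool. GCLC was the other gene whose SBMO pools all lay below the SHMO pools, by a log2(FC) of -0.11. Among all genes the SBMO pools lay entirely below the SHMO pools for 17.8%. The intervals come from the same pools that were in view when the genes were picked.

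Pools of a group differed from each other in most of these genes together. Ctrl replicate 3 held the highest Ctrl value of 10 of the 11 genes and tied with replicate 1 for GCLC, whereas over all genes it was the highest Ctrl pool for 37.4%. SHMO replicate 1 was the highest SHMO pool for 10 of 11, GPX4 being the exception, against 41.5% of all genes. This order was not particular to the 11 genes. The liver, intestine, exocrine pancreas, erythrocyte, and skin and ionocyte marker sums given below were also highest in these pools of their groups. Neuron and muscle sums were lowest in both, and the kidney sum was lowest in Ctrl replicate 3 and highest in SHMO replicate 1. Each gene was centred on its mean, and the median centred log2 value of the 11 was 0.25, 0.47 and 0.72 in the Ctrl pools (replicates 1, 2 and 3), 0.15, -0.42 and -0.41 in the SHMO replicates and -0.13, -0.23 and -0.32 in the SBMO replicates. SHMO replicate 1 thus lay between Ctrl replicate 1 and all other injected pools. The corresponding median over all genes lay within -0.02 and 0.03 in every pool, near 0 because the scaling of TPM sets it so. The summed TPM of the 11 genes was 984, 1017 and 1314 in the Ctrl pools, 806, 596 and 593 in the SHMO pools and 587, 598 and 622 in the SBMO pools.

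**Figure D4:**
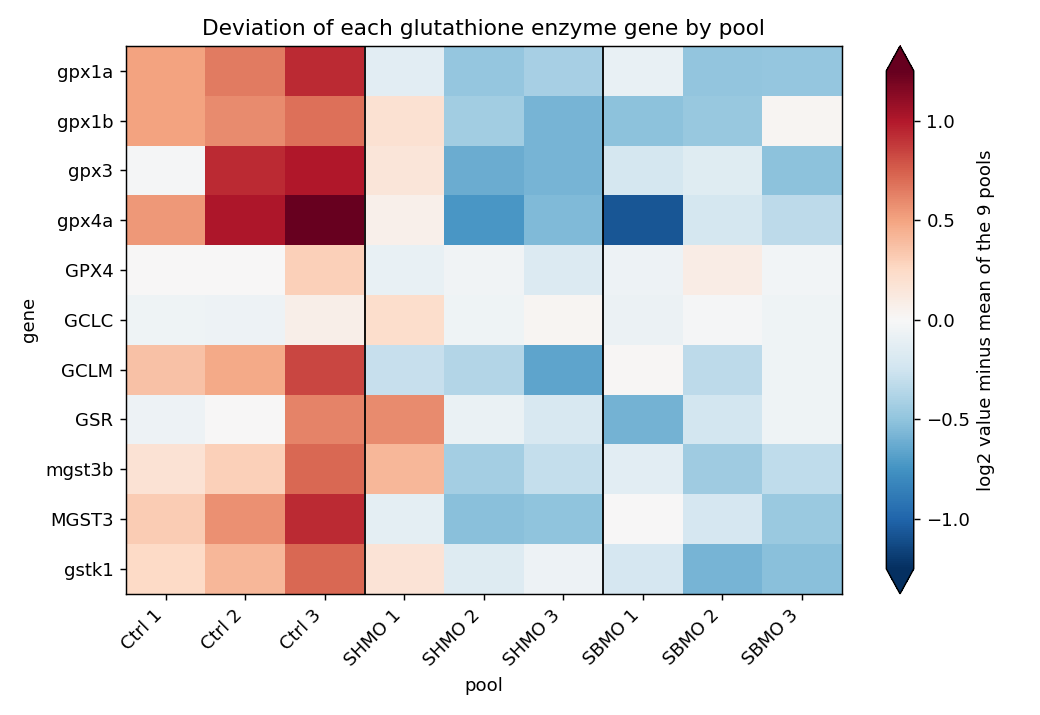
Heat map of log2(scaled TPM + 0.1) of each gene minus its mean over the 9 pools, genes in rows and pools in columns, with black lines between groups. Ctrl replicate 3 is the reddest column, SHMO replicate 1 is mixed, and the rows of GPX4 and GCLC stay pale in all 9 pools.

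Markers of organs in which such enzymes are abundant, and of other tissues, are given for the same pools. Over all genes 5.32% were called lower with SHMOs and 11.5% with SBMOs, and 3.58% and 8.31% higher. The summed TPM of 7 exocrine pancreas genes was 2691 to 5101 in Ctrl, 88.2 to 1572 with SHMOs, the highest being SHMO replicate 1, and 54.9 to 356 with SBMOs, and 6 and 7 of the 7 were past the thresholds in the lower direction. For 9 liver genes the sums were 2671 to 3517 TPM in Ctrl, 2284 to 3628 with SHMOs and 972 to 1836 with SBMOs, with 0 of 9 called lower with SHMOs and 7 of 9 with SBMOs. The 6 intestine genes summed to 993 to 1399, 568 to 1124 and 332 to 667 TPM (Ctrl, SHMO, SBMO), with 0 and 4 of the 5 tested called lower. The 7 skin and ionocyte genes summed to 5711 to 7435, 4790 to 6715 and 3743 to 5297 TPM, with 5 of 7 called lower in each comparison. The skin keratin krt5 was not called, and its SHMO pools all lay above the Ctrl pools (log2(FC) 0.51 with SHMOs, -0.07 with SBMOs). The other gene not called was evpla (-0.95 and -0.41). The 7 erythrocyte genes summed to 737 to 1095, 647 to 1074 and 417 to 699 TPM, with 2 and 3 of the 6 tested called lower. With SHMOs these were hbae1.1 (log2(FC) -1.62) and an SLC4A1 entry, ENSDARG00000024560 (-2.43), and with SBMOs alas2 as well. The list asked for slc4a1a, and both SLC4A1 entries were taken without the paralog letter. Which of them is slc4a1a was not settled here, so ENSDARG00000024560, called in both comparisons, may not be an erythrocyte marker. The other SLC4A1 entry (0.17), hbae3 (-0.08), hbae5 (-0.36) and alas2 (0.62) were not called with SHMOs. Every SHMO pool of alas2 lay above every Ctrl pool. The 11 kidney genes summed to 118 to 162, 150 to 162 and 118 to 156 TPM, with 0 and 2 of the 9 tested called lower. With SBMOs these were CDH17 (log2(FC) -1.96) and an SLC4A4 entry, ENSDARG00000044808 (-1.24). The list was mixed, with 5 of the 9 below 0 and a median of -0.02. PAX2 (ENSDARG00000028148, 0.76) had every SBMO pool above every Ctrl pool, and the other SLC4A4 entry was at 0.50, neither called. The 7 neuron genes summed to 570 to 815, 814 to 1164 and 1115 to 1340 TPM, with 1 and 5 called higher. Of the 5 muscle genes 0 were called in either comparison, with sums of 21174 to 29387, 26074 to 30578 and 26430 to 30997 TPM. No marker matched was at 0 in all 9 pools, so each of these tissues is represented in the RNA of the whole larva. In such RNA fewer cells of a type and less RNA per cell cannot be told apart. The part of these marker differences in the lower levels of the glutathione enzymes was not tested.

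By root-mean-square distance between centred log2 values over the 9 pools, the genes of at least 5 TPM most like the mean pattern of the 11 genes were SLC45A4 at a distance of 0.064, phtf1 at 0.080 and ETFB, a subunit of the mitochondrial electron transfer flavoprotein, at 0.085 log2 units, out of 11701 genes. ETFB was at 116, 116 and 161 TPM in Ctrl, 108, 81.7 and 84.9 with SHMOs and 84.4, 66.7 and 75.6 with SBMOs, again with Ctrl replicate 3 and SHMO replicate 1 highest in their groups.

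Genes of the same pathways outside the 11 were taken by family name in 7 lists, 122 genes of which 113 passed the filter. With SHMOs 11 of the 113 were lower and 4 higher, beside 5.32% and 3.58% of all genes. With SBMOs 36 were lower and 1 higher, beside 11.5% and 8.31%. The same shares of all genes apply to the counts of each list below. The median log2(FC) of the 113 was -0.23 with SHMOs and -0.42 with SBMOs. The number lower with SHMOs was 4 without Ctrl replicate 2 and 25 without SHMO replicate 1, and with SBMOs it was 8 without SBMO replicate 2 and 12 without Ctrl replicate 3. In the same fits 2.29% and 8.15% of all genes were lower with SHMOs, and 3.98% and 4.52% with SBMOs.

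**Figure D5:**
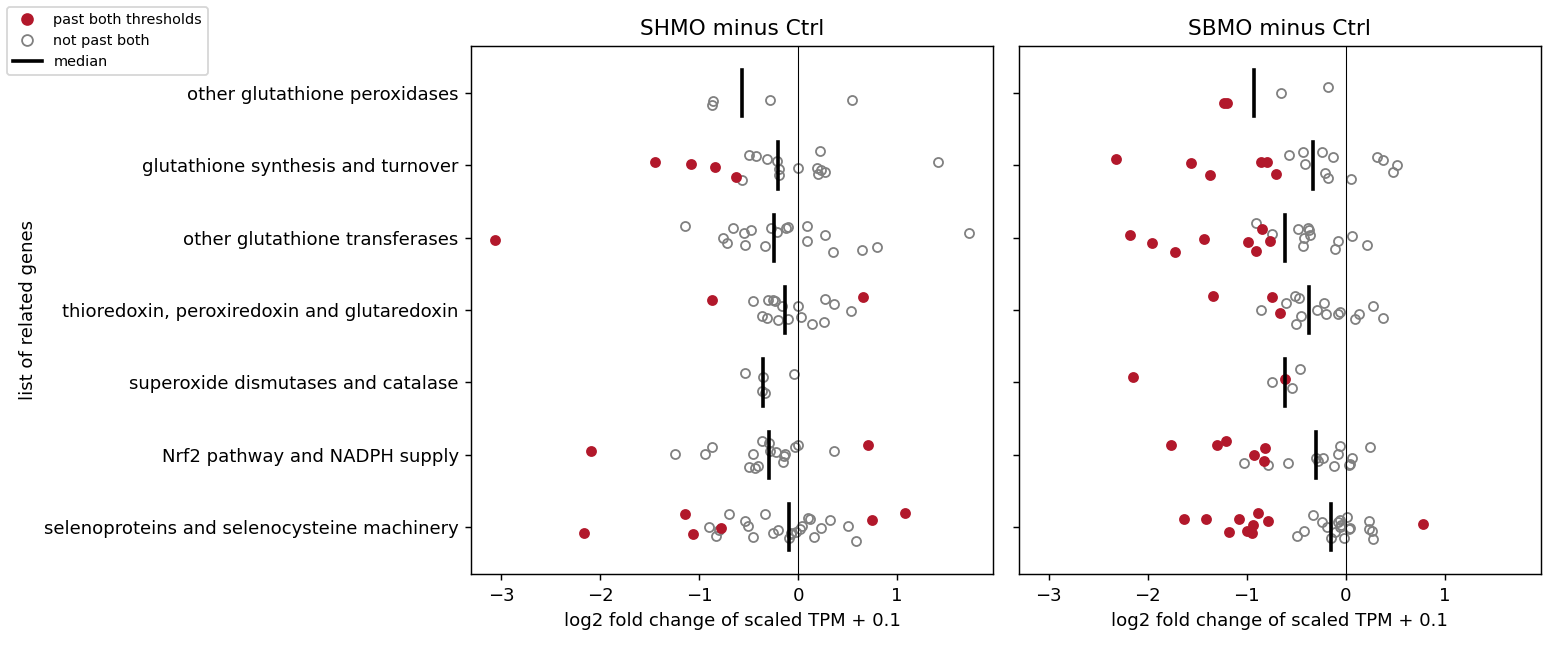
log2(FC) of the 113 related genes by list for SHMO minus Ctrl (left) and SBMO minus Ctrl (right); red points are past both thresholds, open points are not, and black bars are medians, with vertical jitter only to separate points. The medians of all 7 lists lie below 0 in both panels, from -0.57 to -0.09 on the left and from -0.92 to -0.14 on the right.

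Among the other peroxidases 0 of 4 were called with SHMOs and 2 of 4 fell with SBMOs. GPX8 (ENSDARG00000013302), a peroxidase of the endoplasmic reticulum, was at 2.99 ± 0.152 TPM in Ctrl and 1.23 ± 0.302 with SBMOs (SD, n = 3), which is -1.23 on the log2 scale with an adjusted p of 0.0132 (limma, adjusted by Benjamini-Hochberg), and lost its call without SBMO replicate 2 (adjusted p = 0.0528, limma). The gut form gpx2 (ENSDARG00000089149) went from 3.56 ± 1.22 to 1.44 ± 0.250 TPM (SD, n = 3), with an adjusted p of 0.0271 that rose as high as 0.0892 without Ctrl replicate 3 or SBMO replicate 1 or 2 and was 0.0502 after quantile normalization (limma). GPX7 was at 2.86 ± 1.00 TPM in Ctrl, 4.34 ± 1.12 with SHMOs and 1.73 ± 0.459 with SBMOs (SD, n = 3). It was called lower with SBMOs than with SHMOs (log2(FC) -1.20, adjusted p = 0.0447, limma). Among other fits, that call was lost without any 1 SHMO pool (up to 0.165). The most abundant of the 4, gpx9, was at 18.5 ± 1.93, 16.5 ± 5.03 and 16.8 ± 5.62 TPM (Ctrl, SHMO, SBMO, SD, n = 3). Its groups overlapped and it was not called (log2(FC) -0.28 and -0.18 against Ctrl).

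Of 18 genes of glutathione synthesis and turnover, 4 fell with SHMOs and 6 with SBMOs, and 0 rose. CHAC1 (ENSDARG00000070426), which breaks glutathione down inside the cell, was at 505, 420 and 501 TPM in Ctrl, 191, 175 and 182 with SHMOs and 311, 496 and 462 with SBMOs. Of the injected groups only SHMO lay apart from Ctrl, with an adjusted p of 0.00275 for a log2(FC) of -1.44 ± 0.185 (standard error, limma), and this call stood without any 1 pool. SLC3A2 (ENSDARG00000037012), the heavy chain of the cystine transporter among others, was at 84.1 ± 12.5 TPM in Ctrl, 48.7 ± 2.45 with SHMOs and 118 ± 14.0 with SBMOs (SD, n = 3). It fell with SHMOs by 0.84 on the log2 scale (standard error 0.157, adjusted p = 0.0129, and 0.0561 without SHMO replicate 2, limma), and its log2(FC) of 0.52 with SBMOs was under the threshold of size. Another entry of this chain, slc3a2a (ENSDARG00000036427), was at 76.1 ± 9.82 TPM in Ctrl, 68.35 ± 1.06 with SHMOs and 68.6 ± 4.38 with SBMOs (SD, n = 3). It was not called, and the reads these entries shared were not analysed here. CBS (ENSDARG00000053500), which starts the route from homocysteine to cysteine, fell with SBMOs from 13.2 ± 1.95 to 4.48 ± 1.46 TPM (SD, n = 3, adjusted p = 0.00703, limma). With SHMOs its call (adjusted p = 0.0301) was lost without any 1 of the 3 Ctrl pools or without SHMO replicate 2 or 3 (up to 0.117, limma). A more abundant entry, cbsb (ENSDARG00000010946), did not fall. It was at 24.2 ± 0.959 TPM in Ctrl, 29.8 ± 2.86 with SHMOs and 31.2 ± 2.43 with SBMOs (SD, n = 3). Both injected groups of cbsb lay above Ctrl, and it was not called. ABCC1 (ENSDARG00000104719), an exporter of glutathione conjugates, fell with SBMOs by 0.79 on the log2 scale (adjusted p = 0.0110, limma). Glutathione synthetase, GSS, was at 3.18 ± 0.225 TPM in Ctrl, 3.09 ± 1.39 with SHMOs and 2.11 ± 0.448 with SBMOs (SD, n = 3) and was not called. The cystine carrier slc7a11 was between 0.81 and 1.34 TPM in all 9 pools and did not pass the filter.

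The other glutathione transferases gave 1 lower gene with SHMOs and 8 with SBMOs out of 20, and 0 higher, beside 5.32% and 11.5% of all genes lower. The alpha-class gsta.1 (ENSDARG00000090228) was at 207, 249 and 385 TPM in Ctrl, 268, 85.6 and 91.6 with SHMOs and 79.2, 54.4 and 76.2 with SBMOs. SHMO replicate 1 again lay among the Ctrl pools, and the call with SBMOs (log2(FC) -1.95, standard error 0.401, adjusted p = 0.0132, limma) was lost without Ctrl replicate 3 or SBMO replicate 2 (up to 0.0536). The same pools ended the calls of gsta.2 (ENSDARG00000039832, adjusted p = 0.0130, up to 0.0533) and gstt2 (ENSDARG00000095464, adjusted p = 0.0171, up to 0.0655), at -1.73 and -1.43 with SBMOs (limma). The only call with SHMOs was that of a mu-class gene named GSTM3 (ENSDARG00000029473), at 6.06 ± 1.65 TPM in Ctrl, 0.677 ± 0.246 with SHMOs and 3.67 ± 2.82 with SBMOs (SD, n = 3), with an adjusted p of 0.00441 for a log2(FC) of -3.06 (limma). A pair of more abundant entries carry the same symbol and did not fall with SHMOs. ENSDARG00000042533 was at 46.1 ± 4.08 TPM in Ctrl, 58.2 ± 0.266 with SHMOs and 53.7 ± 12.6 with SBMOs (SD, n = 3). ENSDARG00000088116 was at 15.7 ± 3.59, 21.1 ± 4.75 and 12.1 ± 3.65 TPM in the same order. Neither was called in any comparison, and the reads shared by these entries were not analysed here.

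In the thioredoxin, peroxiredoxin and glutaredoxin list, 1 of 18 genes rose and 1 fell with SHMOs, and 3 fell with SBMOs. Of all genes 3.58% rose and 5.32% fell with SHMOs, and 11.5% fell with SBMOs. TXNIP (ENSDARG00000070000), an inhibitor of thioredoxin, fell with SBMOs from 36.2 ± 5.19 to 14.1 ± 1.42 TPM (SD, n = 3), with an adjusted p of 0.00377 for a log2(FC) of -1.34 (limma). The gene that fell with SHMOs is another entry named TXNIP (ENSDARG00000036107), which went from 174 ± 26.0 to 98.9 ± 8.48 TPM (SD, n = 3, adjusted p = 0.0320, limma) and was named after its value was seen. That call was lost without any 1 Ctrl pool or SHMO replicate 2 or 3 (up to 0.123). This entry, the more abundant of the pair in Ctrl, was not called with SBMOs. The peroxiredoxins PRDX1 (ENSDARG00000025350) and prdx1 (ENSDARG00000058734), which reduce hydrogen peroxide with thioredoxin, fell with SBMOs by 0.66 and 0.74 on the log2 scale (adjusted p = 0.0193 and 0.0146, limma). Both calls were lost without SBMO replicate 2 (0.0724 and 0.0598 at most), and that of PRDX1 also without Ctrl replicate 3 and, at a log2(FC) of -0.52, after quantile normalization. GLRX3 (ENSDARG00000098785), a glutaredoxin of iron-sulfur cluster handling, rose with SHMOs from 33.5 ± 3.57 to 55.3 ± 2.54 TPM (SD, n = 3, adjusted p = 0.0186, limma), a call that was lost when Ctrl replicate 1 or 3, or else SHMO replicate 2 or 3, was left out (up to 0.0741). Of 5 superoxide dismutases and catalase, 0 were called with SHMOs and 2 fell with SBMOs. The mitochondrial SOD2 (ENSDARG00000042644) was at 112 ± 15.5 TPM in Ctrl, 80.7 ± 7.93 with SHMOs and 72.2 ± 8.94 with SBMOs (SD, n = 3), with a log2(FC) of -0.61 with SBMOs (adjusted p = 0.0146, limma) that lost its call without Ctrl replicate 3 or SBMO replicate 2 or 3. The secreted SOD3 (ENSDARG00000070168) went from 2.36 ± 0.90 to 0.500 ± 0.391 TPM with SBMOs (SD, n = 3, adjusted p = 0.0202, and up to 0.0747 without Ctrl replicate 2 or 3 or SBMO replicate 2, limma).

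The transcription factor Nrf2 is held back by Keap1 and drives many genes of this pathway. NFE2L2 (ENSDARG00000042824) was at 23.0, 24.5 and 33.4 TPM in Ctrl, 34.2, 14.9 and 20.0 with SHMOs and 12.7, 16.5 and 25.7 with SBMOs, and its groups overlapped. The paralog nfe2l2b was at or below 1.95 TPM throughout, and KEAP1 lay between 6.88 and 10.1 TPM in all pools. Its paralog keap1a (ENSDARG00000016132) fell with SBMOs from 7.53 ± 0.613 to 3.97 ± 1.16 TPM (SD, n = 3, adjusted p = 0.0138, and 0.0565 without SBMO replicate 2, limma). Of the 19 genes in this list 1 rose and 1 fell with SHMOs, and 6 fell with SBMOs, where 5.32% and 11.5% of all genes fell. The gene that fell with SHMOs was the heme oxygenase HMOX1 (ENSDARG00000027529), named after its value was seen, at 7.95, 6.64 and 12.9 TPM in Ctrl, 4.97, 1.28 and 1.37 with SHMOs and 2.69, 1.68 and 3.39 with SBMOs. HMOX1 fell in both comparisons, by 2.10 and 1.77 on the log2 scale (adjusted p = 0.0245 and 0.0271, limma). Its call with SHMOs was lost without any 1 Ctrl pool or SHMO replicate 2 or 3 (up to 0.102), and that with SBMOs when Ctrl replicate 1 or 3, or SBMO replicate 1 or 2, was left out (up to 0.0969). Among those lower with SBMOs, IDH1 (ENSDARG00000025375) and PGD (ENSDARG00000015343), both sources of NADPH, fell with SBMOs by 1.3 and 0.81 on the log2 scale (adjusted p = 0.00996 and 0.0133, limma), and that of PGD was 0.0546 without SBMO replicate 2. The quinone reductase NQO1 (ENSDARG00000010250) fell with SBMOs by 0.82 (adjusted p = 0.0235, and up to 0.0728 without Ctrl replicate 3 or SBMO replicate 1 or 2, limma). TALDO1 (ENSDARG00000103369), of the pentose phosphate pathway, rose with SHMOs by a log2(FC) of 0.71 (adjusted p = 0.0445, limma), a call lost without any 1 of the Ctrl or SHMO pools or SBMO replicate 2 (up to 0.149).

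Directly between the treatments, 8 of the 113 related genes were lower and 3 higher with SBMOs than with SHMOs, beside 2.74% and 1.83% of all genes. SLC3A2 was higher by 1.36 on the log2 scale (adjusted p = 0.00277, limma) and CHAC1 by 1.27 (adjusted p = 0.00716, limma), both without exception when any 1 pool was left out, though CHAC1 lost its call with only these 6 pools in the model. The other heavy-chain entry, slc3a2a, was not called between the treatments (log2(FC) 0.09). The pi-class transferase gstp1.1 (ENSDARG00000103019) was at 49.5, 13.9 and 11.6 TPM with SHMOs, 1.18, 1.05 and 1.27 with SBMOs and 2.80, 6.08 and 10.7 in Ctrl, which is -3.91 on the log2 scale between the treatments (adjusted p = 0.00691, limma) and -3.26 without SHMO replicate 1 (adjusted p = 0.0151, limma). A more abundant pi-class entry, gstp1.2 (ENSDARG00000104068), was at 407 ± 55.5 TPM with SHMOs, 257 ± 30.6 with SBMOs and 365 ± 52.1 in Ctrl (SD, n = 3). Its log2(FC) between the treatments was -0.58, and it was not called (adjusted p = 0.0517, limma). TXNIP (ENSDARG00000070000) was also lower with SBMOs, by a log2(FC) of -0.97 (adjusted p = 0.00952, 0.0522 without SBMO replicate 2 and 0.0557 with only these 6 pools in the model, limma). The other TXNIP entry was not called between the treatments. The number lower was 2 with only these 6 pools in the model, 2 without SBMO replicate 2 and 15 without SBMO replicate 3. Of all genes 0.262%, 0.528% and 3.99% were lower in those fits.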

How the data were processed

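RNA from 9 pools of larvae (3 Ctrl, 3 SHMO, 3 SBMO) was sequenced after poly(A) capture. Per the labels, STAR, RSEM and GRCz11 were used by the authors, after trimming, to make the deposited TPM values, given to 2 decimals; the annotation release is not given in the sources used here. TPM keeps no depth, so the study's count test could not be run. TPM values were scaled by median-ratio factors (0.930 to 1.08) and taken as log2(TPM + 0.1), for the 19051 genes whose mean reached 1 TPM. The 3 groups entered a limma 3.58.1 model (R 4.3.3, eBayes with trend), adjusted by Benjamini-Hochberg over all genes within each comparison. Whether the pools came from separate clutches is not stated, so p-values measure the spread between these pools.

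The 11 genes, the related lists and the marker lists were chosen with earlier results of these data known. Named related genes are, per list, up to 4 called with the smallest adjusted p against Ctrl, 1 called the other way, up to 4 called between the treatments, and single genes whose role a sentence needs. Markers absent by exact symbol were matched without the paralog letter. Symbols came from a table of Ensembl names that matched 29201 genes. The model was tested on simulated data. Alternatives were other pseudocounts, filters, scalings and variance priors, only the groups compared, a replicate block and leaving out each pool; leaving out SHMO replicate 1 and Ctrl replicate 3 together was added after the values were seen. Figures were drawn with matplotlib 3.10.9.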

Additional observations from a re-analysis of the deposited data

How the results depend on the processing

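With 3 pools a group, most counts changed when 1 pool was left out, which also lowers the power of the fit. Leaving out 1 pool at a time gave 1 to 7 of the 11 genes lower with SHMOs, 3 to 8 with SBMOs and 0 between the treatments, with medians of -1.07 to -0.72, -0.96 to -0.67 and -0.13 to 0.10. Related genes ran from 3 to 25 lower and 1 to 7 higher with SHMOs, 8 to 39 lower and 1 to 2 higher with SBMOs, and 2 to 15 lower and 2 to 4 higher between the treatments. In these fits the share of all genes lower ran from 1.49% to 8.15% with SHMOs and from 3.98% to 12.7% with SBMOs. Between the treatments it ran from 0.528% to 3.99%. Between the treatments the count of lower related genes, 8, became 5 with no filter on low values, 5 with eBayes without trend, and 2 lower and 1 higher with only these groups in the model. The share of all genes lower was 1.4%, 2.16% and 0.262% in those fits. Leaving out SHMO replicate 1 and Ctrl replicate 3 together, chosen after seeing the data, gave 6 and 5 of the 11 genes lower against Ctrl, 2 related genes higher with SBMOs and 3 lower between the treatments. Same-numbered pools correlated between -0.26 and 0.15 in their deviations, so the numbers do not pair the samples. The replicate block gave 4 and 5 of the 11 genes, without gpx1b with SHMOs and GCLM with SBMOs, and of the related genes 1 higher with SHMOs and 5 lower between the treatments. Among genes named, the block left GLRX3, TXNIP (ENSDARG00000036107), TALDO1 and selenoj uncalled with SHMOs (adjusted p = 0.0506, 0.0551, 0.0898 and 0.0542, limma). Without SHMO replicate 1 and Ctrl replicate 3 together there was no call of GLRX3, TALDO1 and that TXNIP entry with SHMOs, and of GCLM, gpx2, PRDX1, SOD2 and SOD3 with SBMOs. Over all genes, the mean filter of 5 TPM moved the share of higher calls with SBMOs from 42.0% to 52.2%, and no further scaling moved that between the treatments from 40.1% to 29.5%. Of the values of single genes, 268 lost and 11 gained a call among the alternatives, 1622 did neither, and 0 of those called in the main fit reversed direction. Related genes entered these counts only where the main fit called them, so only the 11 genes could gain a call. Of the 11, those not called in the main fit were not counted as reversed, and GSR with SHMOs ran from -0.33 to 0.13. TPM keeps no depth and library depths were not used here, so no counting error is given for low genes such as gpx3.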

Other observations

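Selenoproteins other than the peroxidases, together with the enzymes that make selenocysteine, gave 4 lower and 2 higher genes of 29 with SHMOs and 9 lower and 1 higher with SBMOs. Of all genes 5.32% were lower and 3.58% higher with SHMOs, and 11.5% and 8.31% with SBMOs. The deiodinase dio3b (ENSDARG00000095767), which inactivates thyroid hormone, was at 7.12, 7.97 and 7.99 TPM in Ctrl, 2.41, 1.33 and 1.56 with SHMOs and 1.76, 2.58 and 2.96 with SBMOs. Both injected groups lay apart from Ctrl, by a log2(FC) of -2.17 and -1.63 (standard error 0.263, adjusted p = 0.00201 and 0.00642, limma with Benjamini-Hochberg adjustment). DIO1 (ENSDARG00000042112), which can both activate and inactivate the hormone, was at 9.06 ± 0.626 TPM in Ctrl, 11.98 ± 1.69 with SHMOs and 4.24 ± 0.967 with SBMOs (SD, n = 3). It fell with SBMOs by 1.08 on the log2 scale (adjusted p = 0.0073, limma) and was lower with SBMOs than with SHMOs by a log2(FC) of -1.41 (adjusted p = 0.00446, limma). In the other direction SEPHS1 (ENSDARG00000058292), a relative of the selenophosphate synthetase SEPHS2, rose from 9.81 ± 1.41 TPM in Ctrl to 21.7 ± 1.05 with SHMOs and 16.8 ± 3.25 with SBMOs (SD, n = 3, adjusted p = 0.00348 and 0.00983, limma). The calls of dio3b, DIO1 and SEPHS1 named here stood without any 1 pool. The selenium carrier selenop (ENSDARG00000093549) was at 416, 437 and 577 TPM in Ctrl, 415, 256 and 267 with SHMOs and 313, 252 and 253 with SBMOs, with SHMO replicate 1 just below the lowest Ctrl pool. It passed the threshold with SBMOs (log2(FC) -0.78, adjusted p = 0.0268, and up to 0.0873 with Ctrl replicate 2 or 3, or either of the same SBMO replicates, left out, limma) and not with SHMOs (log2(FC) -0.70, adjusted p = 0.0606). The crystallin-like selenoj (ENSDARG00000087277) fell with SBMOs from 41.7 ± 7.99 to 21.2 ± 2.48 TPM (SD, n = 3, adjusted p = 0.0119, limma), and with SHMOs its call (adjusted p = 0.0312) did not stand (up to 0.127) once Ctrl replicate 2 or 3, or the same SHMO replicates, were left out.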
